A study of Rattus norvegicus with 45 samples.

Results

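The litter was the unit compared in medial preoptic area of rat pups on postnatal day 10: 21 of the 24 litters of the series had a library from a daughter and a library from a son, which gave 42 of its 45 libraries. Members were chosen by the number before the sex letter in the library names, 1 female and 1 male per number. The remaining 3 litters (58 with a female, 52 and 91 with a male only) entered no pair. The dams had received corn oil (5 paired litters), 50 µg/kg bisphenol A (BPA, 5 litters), or BPA mixed in equal parts with bisphenol S and bisphenol F (mixture) at 50 µg/kg (6 litters) or 150 µg/kg (5 litters) from gestation day 8 until birth, and all were dosed in utero only. Dams were assigned to treatment as cage pairs, and which litters shared a cage is not given in the labels, so a shared cage is part of what a litter stands for here and p-values leave it out of account. Strain and sire are not given either. Transcripts were counted by 3' Tag-seq, which counts messenger RNAs by 1 short read from their 3' ends. Levels below are CPM, the counts of a gene relative to the scaled total of its library. The 42 libraries held 4397460 to 7223180 counts each.

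Pups of a litter share a dam, the intrauterine exposure, the nest and the care they receive, and part of their genome. A female and a male of different litters in the same exposure group share the treatment and may share a cage. The medial preoptic area is a small hypothalamic region for sexual and parental behaviour that lies near the striatum, the septum and the ventricle, and a punch of it can hold tissue of its neighbours. The question was which genes agree between brother and sister once the mean of each exposure and sex had been removed.

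Whole profiles of littermates were more alike than those of other pups with the same exposure. Over 18943 genes the correlation of the group-centred log2 CPM averaged 0.119 ± 0.102 (SD, n = 21 litters) between littermates and -0.0276 ± 0.130 over the 90 female-male pairs of different litters of the same exposure. The difference of 0.147 had a permutation p of 0.00011 (two-sided, pairing permuted within exposure, 100000 resamples). Removing group means forces the average over all pairs of an exposure to near 0, so the value below 0 mirrors the littermate value. Of the 21 littermate pairs, 18 had an r above 0, against 36 of 90 (40%) other pairs. All 21 lay above the median of the other pairs, -0.0319. The range ran from -0.015 in litter 100 to 0.383 in litter 53, and the distributions overlapped, since the highest r of pups from different litters was 0.378. The brother was the most similar male of the exposure for 11 of 21 females, and the sister the most similar female for 11 of 21 males. Without litter 53 the difference was 0.127, the lowest of the 21 values with 1 litter left out.

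**Figure D1:**
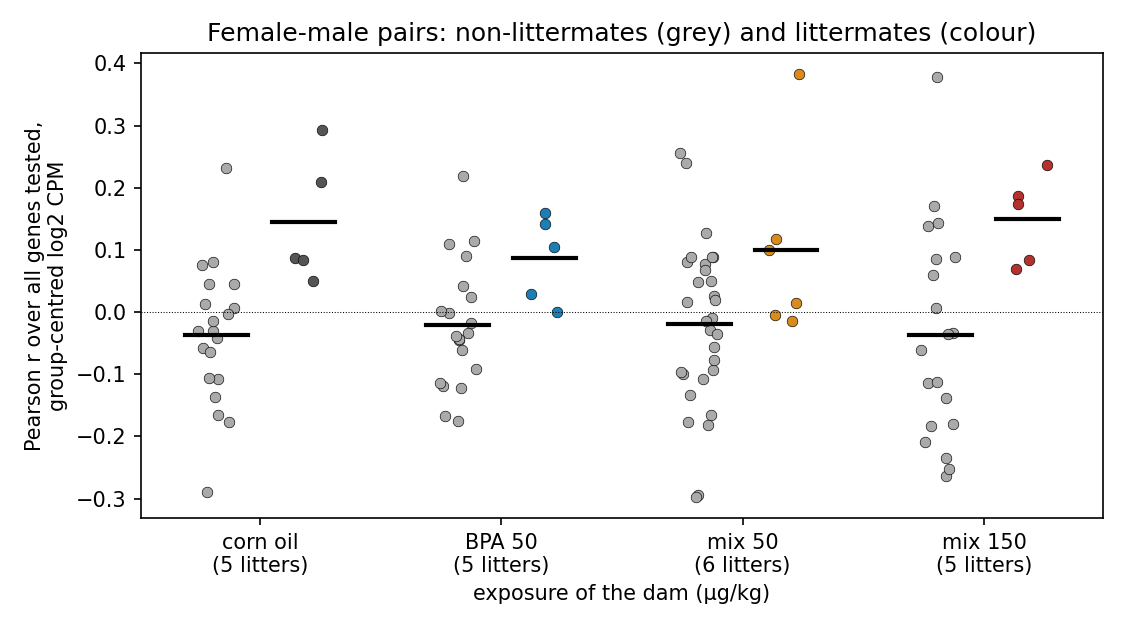
Pearson correlation of group-centred log2 CPM over 18943 genes (vertical axis) for female-male pairs of each exposure, with pups of different litters in grey, littermates in colour and horizontal bars for means. In every exposure the mean of the littermates lies above the mean of the other pairs, and the points overlap.

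The number of single genes with a litter difference varied with the method. The edgeR litter test called 147 of 18943 genes (0.776%) at an adjusted p under 0.05, 118 with an assigned symbol and 29 without. DESeq2 called 741 genes, and edgeR without the filter on low counts called 3396, of which 3354 were genes of the filtered test. An unadjusted p under 0.05 was reached by 2774 genes (14.6%) and a p above 0.95 by 537 (2.83%). Agreement was measured by the intraclass correlation over the 21 pairs, which is 1 where both pups of every litter deviate alike and 0 where they share nothing. Its median was 0.111 over all genes, with 66.5% above 0, and 0.625 over the called genes. After the group means had been removed, as for every such factor below, called genes differed by a median factor of 1.11 between littermates and of 1.20 between pups of different litters, so the shared differences were small. The number of called genes depended on single litters: it was 42 without litter 84, 44 without litter 53, 55 without 63, 58 without 88, 61 without 62, 64 without 103, 68 without 68, 87 without 9, 94 without 14 and 96 without 5. It was 226 without litter 50, 282 without 61, 317 without 38, 443 without 93, 460 without 39 and 475 without 100. Of the 36 called genes the naming rule picked, 12 passed in every such fit: Acaa2, Slc22a25, Chd5 with its overlapping LOC120103139, Trim67, Rbm3, Ube2s-ps3, Galnt16, Hes6, Grm2, Asb1 and Capn5. The other 24 missed the threshold in at least 1 of them. Genes with p under 0.05 numbered between 2159 and 3097 over all 21 such fits.

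The gene with the lowest p was Acaa2, the mitochondrial thiolase of the last step of fatty acid oxidation (chromosome 18 of GRCr8, 70620310 to 70648417). Its level ran from 15.2 through a median of 25.5 to 35.4 CPM over the 42 libraries, and both pups of litters 9, 39, 63 and 100 were below 20 CPM. In litter 100 the female had 15.2 and the male 16.3 CPM, whereas in litter 49 of the oil group they had 34.6 and 35.4 CPM. In the oil group litter 9 stood apart at 16.7 and 18.5 CPM, with the other 8 libraries between 24.4 and 35.4 CPM. Littermates lay on the same side of their group means in 18 of 21 litters and differed by a median factor of 1.09, against 1.28 between litters. The intraclass correlation was 0.854 (edgeR F = 10.5, adjusted p = 0.000449), and Acaa2 passed the threshold in all 21 fits that left out a litter.

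Among genes with an assigned symbol, the 3 whose group-centred levels were most like those of Acaa2 over the 42 libraries were Alkbh5 (r = 0.91), the ribosomal protein pseudogene Rpl17-ps4 (r = 0.87) and Pitpnc1 (r = 0.86), and these points include littermates. Alkbh5, an RNA demethylase that removes N6-methyladenosine, was chosen for description after its values were seen. Its 42 levels were cut into 3 sets at their 2 widest gaps. The low set held 8 libraries between 8.45 and 11.4 CPM and the middle set 15 between 24.4 and 32.3 CPM. The high set held 19 between 42.6 and 53.9 CPM. The gap above the low set exceeded 0.5 on the log2 scale, the size asked of other genes below. The gap from 32.3 to 42.6 CPM did not, so the middle and high sets are less clearly apart. Both pups lay in the same set in 16 of 21 litters, the low set in litters 9, 63 and 100. Litters 39 and 53 held a low female with 9.31 and 9.85 CPM and a male of the middle set with 28.9 and 24.4 CPM. No litter had 1 pup in the low and 1 in the high set. Its intraclass correlation was 0.779 (edgeR adjusted p = 0.027).

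Pitpnc1, a phosphatidylinositol transfer protein, followed the same order. It ran from 222 to 249 CPM in the 8 libraries low for Alkbh5, from 284 to 337 CPM in the middle set and from 339.5 to 396 CPM in the high set. The 3 ranges did not overlap, though the middle and high ones nearly met, and its own edgeR litter test gave an adjusted p of 0.0126. Pitpnc1 and Rpl17-ps4 were picked for their likeness to Acaa2 over these same libraries. They correlated with Alkbh5 at r = 0.97 and 0.94. Their order over the Alkbh5 sets follows from that choice and is no separate evidence. Rpl17-ps4 ran from 0 to 0.632 CPM, from 2.25 to 4.89 CPM and from 4.60 to 9.06 CPM in these sets, and did not pass the litter test (adjusted p = 0.116). In GRCr8, Alkbh5 and Pitpnc1 are both on chromosome 10 (from 45844411 and from 92663260), Acaa2 is on chromosome 18 and Rpl17-ps4 on chromosome 4. Reads of a pseudogene and its parent gene can be exchanged in counting.

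**Figure D2:**
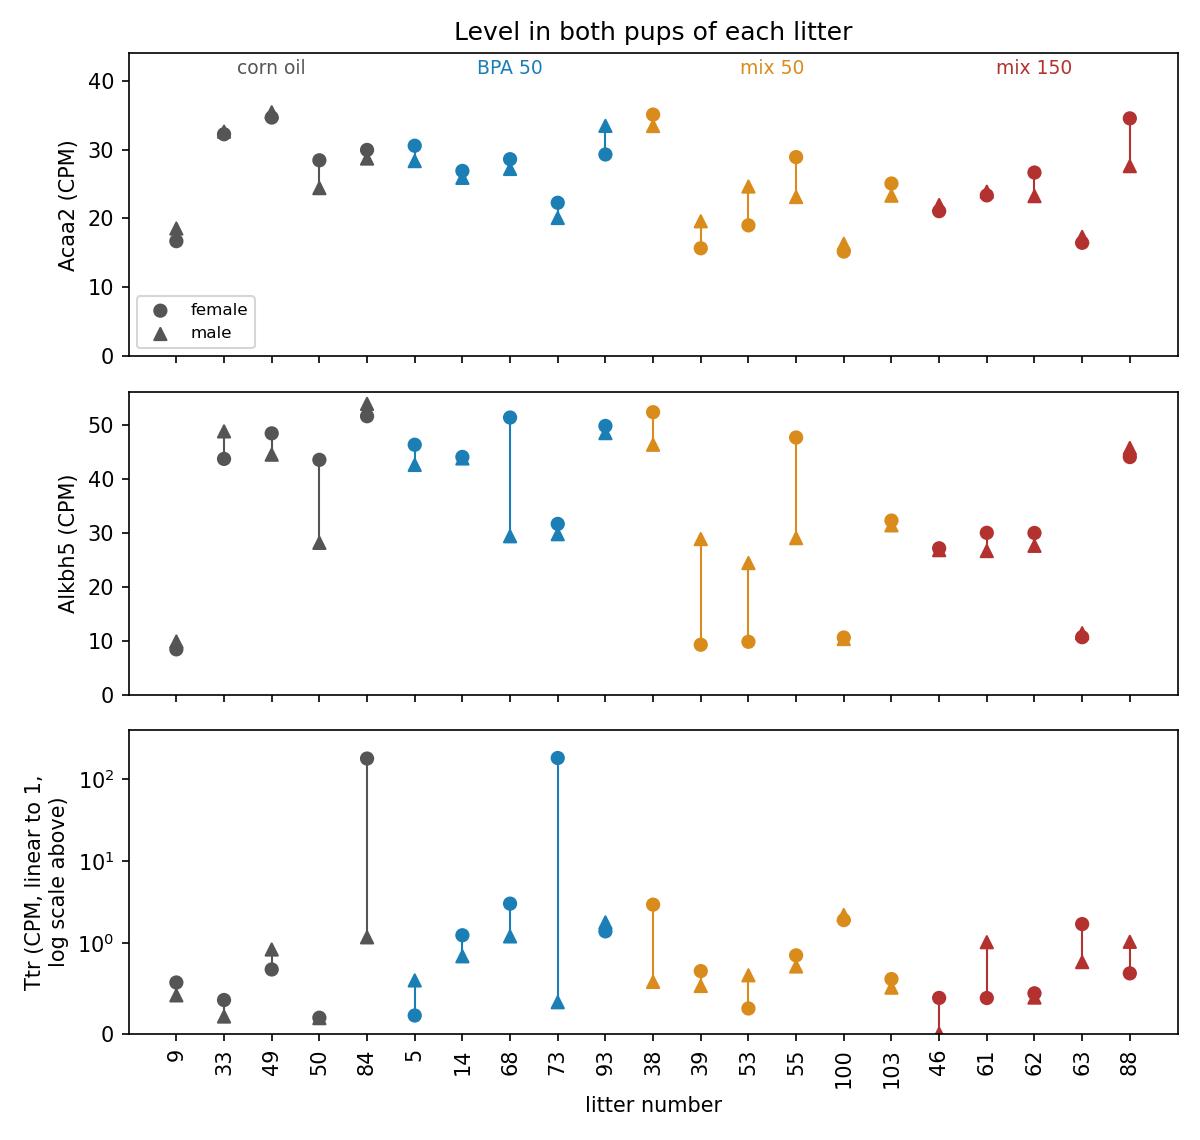
Level in CPM of Acaa2, Alkbh5 and Ttr in the female (circle) and the male (triangle) of each litter, joined by a line and coloured by exposure. Acaa2 and Alkbh5 are low in both pups of litters 9, 63 and 100. Ttr, on an axis that is linear to 1 CPM and logarithmic above, is high in the females of litters 84 and 73 and below 2 CPM in their brothers.

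Separate sets of levels were looked for in the other genes as well, after the data had been seen. Of 11776 genes with a mean of at least 10 CPM, 55 (0.467%) had a gap of at least 0.5 on the log2 CPM scale with at least 4 libraries on each side, 32 of them without an assigned symbol. The litter test had called 4 of the 55: Alkbh5, Mx2 and the neighbouring identifiers LOC120099832 and LOC120099833. Of the 124 called genes of that mean 3.23% had such a gap, against 0.467% of all 11776. LOC120099832 was between 13.1 and 19.01 CPM in 10 libraries and between 61.2 and 111 CPM in 32. Both pups were low in litters 50, 53, 68 and 73, and 1 pup in litters 9 and 63. Mx2, an interferon-induced GTPase, ran from 2.01 through 7.67 to 33.2 CPM (intraclass correlation 0.646, edgeR adjusted p = 0.0457), with 16 of 21 pairs on the same side.

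Other genes of this kind split littermates. Smim45, a small membrane protein gene, was at 0 to 0.176 CPM in 4 libraries and at or above 37.4 CPM in the other 38. Both pups of litter 50 were at the low level, with 0.176 and 0.171 CPM, whereas litter 68 had 41.7 CPM in the female and 0 in the male, and litter 103 had 0 and 79.9 CPM. Arl4d, a small GTPase of the Arf family, was low in both pups of litters 5 and 55 and in 1 pup of 5 litters. Msn, which encodes moesin, a linker of membrane and actin, was below 10 CPM in 7 libraries, both pups of litter 46 (7.48 and 6.20 CPM) and 1 pup of litters 9, 39, 63, 88 and 93. The intraclass correlations were 0.471 for Smim45, 0.527 for Arl4d and 0.0436 for Msn, and none passed the litter test (adjusted p = 0.466, 0.23 and 0.857).

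The other genes of lowest p covered several roles. Rbm3, an RNA-binding protein induced by mild cold, ran from 58.0 through 78.2 to 99.9 CPM. Its levels were 58.0 and 66.6 CPM in litter 9 and 99.9 and 94.2 CPM in litter 38 (intraclass correlation 0.797, edgeR adjusted p = 0.012). Littermates differed in it by a median factor of 1.06 and pups of different litters by 1.15. Id3, an inhibitor of basic helix-loop-helix factors, was 16.6 and 19.9 CPM in litter 53 and 46.9 and 36.8 CPM in litter 103. Hes6, a helix-loop-helix factor of neurogenesis, was 46.9 and 45.1 CPM in litter 88 and 75.6 and 80.3 CPM in litter 49. Both had an adjusted p of 0.0126 and intraclass correlations of 0.682 and 0.693.

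Among genes of neuronal function, Chd5, a chromatin remodeller of neurons, was 172 and 169 CPM in litter 63 and 266 and 251 CPM in litter 62 (intraclass correlation 0.756, edgeR adjusted p = 0.00281). Chd5 overlaps LOC120103139, also called, and without a stated strand setting their reads cannot be told apart. Trim67, a neuronal ubiquitin ligase, was 74.8 and 72.1 CPM in litter 49, above every other oil library, and 39.9 and 35.7 CPM in litter 84. Grm2, a metabotropic glutamate receptor, ran from 2.76 to 14.1 CPM, and Kcnk10, a leak potassium channel, from 33.9 to 66.0 CPM. Cadm3, a synaptic adhesion protein, ran from 86.2 to 162 CPM. These genes had adjusted p-values from 0.00281 to 0.0178. Chd5, Kcnk10 and Cadm3 all had their highest litter mean in litter 62.

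Of the further genes among the 25, Slc22a25, a transporter of the organic anion family, ran from 17.6 to 51.4 CPM and was 17.6 and 20.1 CPM in litter 53 against 50.1 and 43.9 CPM in litter 63 (intraclass correlation 0.739, edgeR adjusted p = 0.00229). Galnt16, an enzyme of mucin-type O-glycosylation, was 120.4 and 123 CPM in litter 5 and 68.1 and 69.1 CPM in litter 50. Cxcl12, a chemokine, was 29.5 and 26.6 CPM in litter 63 and 11.2 and 14.1 CPM in litter 61. The remaining 11 were Myh14 (a non-muscle myosin), Capn5 (a calpain), Nkiras1 (a regulator of NF-kappa-B), H3f3a (histone H3.3), Ppp1r14c (a phosphatase inhibitor), Cdkl4, Asb1, Wscd2, Lrrc61 and the pseudogenes Ube2s-ps3 and Ppp1cb-ps5, with intraclass correlations from 0.625 to 0.729. Next to each other in GRCr8 lay 4 pairs of called genes, Stk32a with Dpysl3, which do not overlap, and Lrrc61 with Rarres2, Chd5 with LOC120103139 and Ube3d with LOC102551813, which do. In all, 60 of the 129 called genes found in that table overlap another gene there.

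Ttr was called without being shared by littermates. It encodes transthyretin, the thyroid hormone carrier that the choroid plexus makes in bulk, and its adjusted p was 0.0183 with an intraclass correlation of 0.0882 (permutation p = 0.514), the only called gene under 0.4. The female of litter 84 had 180.2 CPM and her brother 1.17 CPM, and the female of litter 73 had 183 CPM and her brother 0.346 CPM. The other 38 libraries lay between 0 and 3.02 CPM. The choroid plexus list had 7 of 10 members tested, a median intraclass correlation of 0.0882 and Ttr as its 1 called member. Without litters 73 and 84 the litter test called 38 genes, 37 of them among the 147, a setting chosen after seeing the data.

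The largest axis of variation was in part shared by littermates. The first principal component of the group-centred values held 16.2% of the variance and had an intraclass correlation of 0.534 over the 21 litters (Pearson r 0.54, Spearman rho 0.56, permutation p = 0.0274, adjusted p = 0.0686 over 5 components), so it did not pass the adjusted threshold. Without the 2 litters whose females lay farthest from the female median it was 0.405. Component 4, with 4.16% of the variance, had 0.509 (adjusted p = 0.0686), and components 2, 3 and 5 had 0.0891, -0.0152 and -0.331. High scores went with Cartpt, Ppp1r1b, Adora2a, Gpr6, Tac1 and Drd3, genes of striatal neurons, and low scores with Lhx8, Lhx6, Gbx1, Nkx2-1 and Ngfr, genes of the ventral forebrain. All 12 striatal markers of the list loaded on the high side, against 9950 of 18943 genes. The sign of the component had been set so that Ppp1r1b, itself on this list, lay on the high side. Of the tested markers on the preoptic list, Tac1 (loading 0.0341) and Esr1 (0.00138) loaded on the high side and the others on the low side. In litter 53 both pups scored lowest, -30.6 and -25.8, and in litter 84 they scored 16.2 and 25.6.

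Adora2a, the adenosine receptor of striatal projection neurons, ran from 15.9 through 71.7 to 114 CPM, with 34.1 and 27.0 CPM in litter 53 and 77.4 and 114 CPM in litter 68. Drd1, the dopamine receptor of the other striatal class, was 20.9 and 16.3 CPM in litter 53 and 55.0 and 60.9 CPM in litter 84. Adora2a and Drd1 were thus present in every punch. Of the 16 preoptic markers 11 passed the filter, Nkx2-1 with 2.21 to 14.6 CPM and Lhx8 with 5.53 to 74.1 CPM. In these bulk punches fewer cells of a type and less RNA per cell cannot be told apart. Of the 147 called genes, 88 had litter means correlated with those of the first component at an absolute r of at least 0.7, 32 rising and 56 falling with it, against 16.2% of all genes. With components 1 and 2 as covariates the test called 62 genes (0.327%), 30 of them among the 147, and 1334 genes (7.04%) had a p under 0.05. Acaa2 (adjusted p = 2.86e-05), Slc22a25 (0.00423), Cdkl4, Ppp1cb-ps5, Ube2s-ps3 and Rbm3 were among the 30. Trim67 (0.0887), Hes6 (0.161), Grm2 (0.446), Asb1 (0.596) and Capn5 (0.817) were not, though they passed in every fit with a litter left out.

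Among activity-response genes, Nr4a1 passed the litter test, and its call rested on litter 63. Immediate early genes are transcribed within minutes of neuronal firing through CREB, which binds cyclic AMP response elements, and serum response factor, which binds CArG boxes. Of 22 tested members, 1 was called (Nr4a1) and 10 (45.5%) had a p under 0.05, against 14.6% of all genes, and the median intraclass correlation was 0.269 against 0.111. Nr4a1, an orphan nuclear receptor, had 12.6 and 18.7 CPM in litter 63 against 4.57 to 8.38 CPM in the other 8 libraries of that exposure (intraclass correlation 0.645, edgeR adjusted p = 0.027). Its littermates lay on the same side of the group means in 13 of 21 litters. Without litter 63 the intraclass correlation was 0.410 (adjusted p = 0.297), and without the higher mixture dose 0.281 (adjusted p = 0.464). Egr1, a zinc finger factor, ran from 13.1 through 29.5 to 57.9 CPM (0.558, adjusted p = 0.1). Fos and Npas4 ran from 1.39 to 9.51 and from 1.29 to 7.62 CPM (0.471 and 0.478, adjusted p = 0.0872 and 0.12). Jun, Dusp1 and Klf4 had values of -0.224, -0.186 and -0.251.

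The promoters of Nr4a1 and Egr1, the members of highest agreement, are shown because they carry the elements these factors bind. They are the RefSeq promoter windows of GRCr8, 300 bases on the plus strand, at chr7:134259888-134260187 and chr18:26736828-26737127. Capitals mark the half-site TGACG, searched on both strands and here read as CGTCA, and, in Egr1, CArG boxes. The Egr1 window runs from 250 bases before to 50 after the start of the gene, whereas the Nr4a1 window lies inside the span annotated for that gene (134247153 to 134268044).
Nr4a1: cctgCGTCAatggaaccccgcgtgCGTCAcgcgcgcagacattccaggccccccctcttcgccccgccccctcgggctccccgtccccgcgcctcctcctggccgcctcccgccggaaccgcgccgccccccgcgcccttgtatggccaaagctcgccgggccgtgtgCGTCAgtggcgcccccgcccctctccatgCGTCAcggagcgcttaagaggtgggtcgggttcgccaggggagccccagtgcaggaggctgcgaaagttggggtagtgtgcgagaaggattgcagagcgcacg
Egr1: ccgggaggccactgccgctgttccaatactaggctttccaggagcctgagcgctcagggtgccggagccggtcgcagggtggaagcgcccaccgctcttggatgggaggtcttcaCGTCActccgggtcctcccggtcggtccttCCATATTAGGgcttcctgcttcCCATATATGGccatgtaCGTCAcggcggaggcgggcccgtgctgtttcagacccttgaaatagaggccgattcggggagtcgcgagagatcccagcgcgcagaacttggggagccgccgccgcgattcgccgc
The Nr4a1 window held 4 half-sites and 0 CArG boxes, and the Egr1 window 2 half-sites and 2 CArG boxes, none overlapping. Of 27457 promoters of that length, 22.0% held TGACG on either strand, 0.255% held 4 or more, and 1.64% a CArG box. Of the 22 tested immediate early genes 16 had a promoter entry, 10 of them with TGACG and 2 with a CArG box. Npas4 had neither in this window. These matches describe letters and not binding.

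Genes of the glucocorticoid response, a list that also holds the receptor Nr3c1 and the enzyme Hsd11b1, had a similar median and no call. Of 20 tested members 0 passed the threshold in edgeR (10, or 50%, had an unadjusted p under 0.05), with a median intraclass correlation of 0.286. Errfi1, an inhibitor of the EGF receptor, ran only from 10.95 through 14.3 to 21.2 CPM, yet littermates lay on the same side in 18 of 21 litters and differed by a median factor of 1.05 (0.748, adjusted p = 0.0523). It was 21.2 and 19.5 CPM in litter 63 and 11.8 and 11.6 CPM in litter 53. Klf9, a factor induced by glucocorticoid and thyroid hormone, was 114 and 110.4 CPM in litter 84 and 59.5 and 59.0 CPM in litter 61 (0.599, adjusted p = 0.0546). Sgk1, a kinase, had its highest litter mean in litter 84 too, at 58.6 and 59.7 CPM (0.469, adjusted p = 0.0916). Fkbp5, the feedback chaperone of the receptor, had 0.460, and Nfkbia -0.272. The members did not move together along the first component. Litter means of Tsc22d3, Zbtb16, Angptl4, Cdkn1a and Hsd11b1 fell with it (r = -0.62, -0.90, -0.47, -0.94 and -0.52). Those of the other members rose, Klf9 and Sgk1 with r = 0.86 and 0.81. With components 1 and 2 as covariates 2 of the 20 members (10%) had a p under 0.05, as had 6 of 22 (27.3%) of the immediate early genes and 7.04% of all genes.

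**Figure D3:**
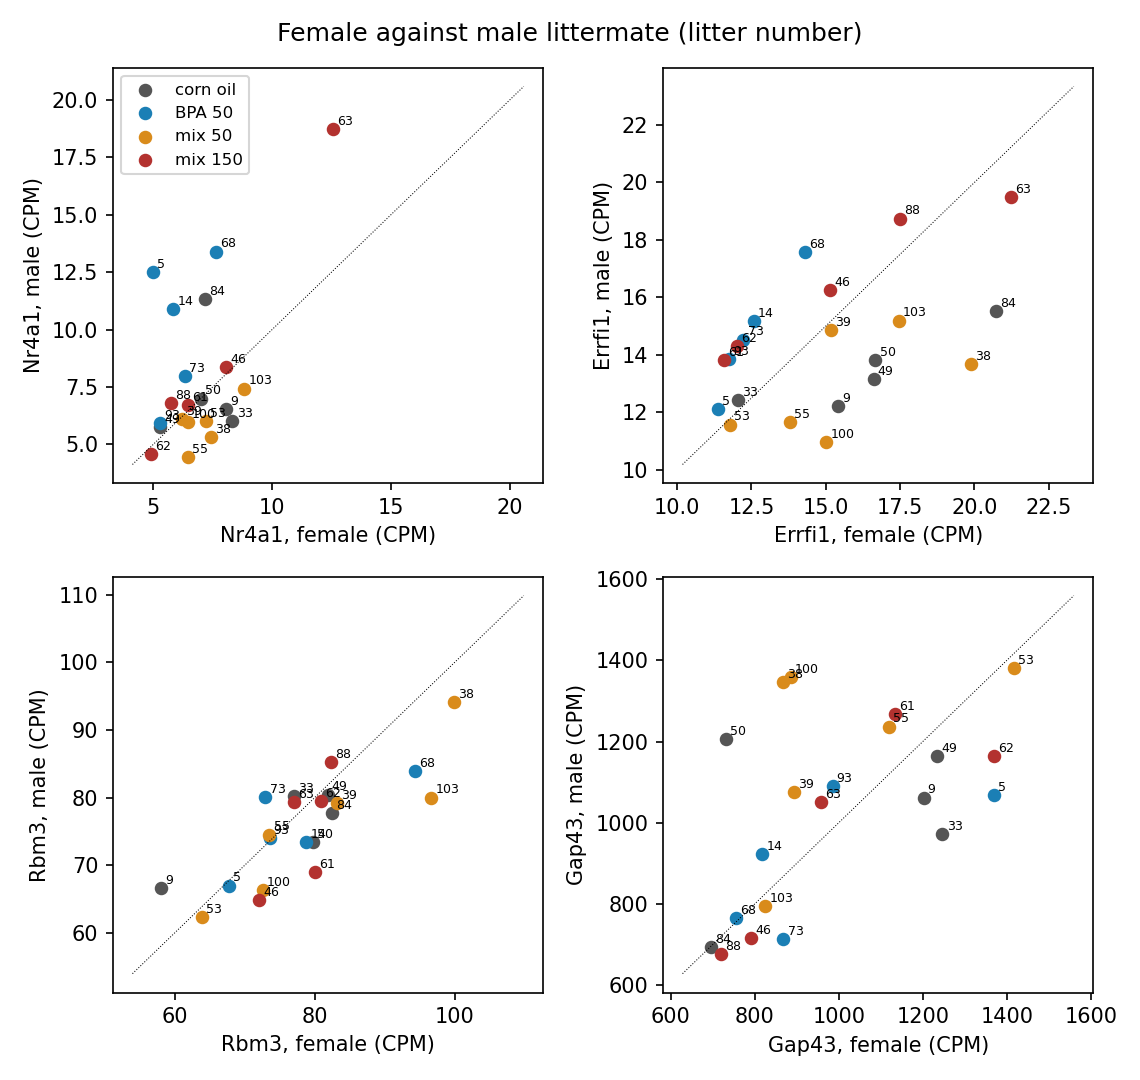
Level in CPM of Nr4a1, Errfi1, Rbm3 and Gap43 in the female (horizontal) against the male littermate (vertical), coloured by exposure, with litter numbers and the line of equality. In both sexes litter 63 has the highest level of Nr4a1 and of Errfi1, litter 38 of Rbm3 and litter 53 of Gap43.

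Cell type lists had median intraclass correlations from -0.0992 to 0.387. Of the 10 general neuron markers 7 (70%) had a p under 0.05 and 0 were called in edgeR, with a median intraclass correlation of 0.387. Gap43, a growth cone protein, was 1418 and 1381 CPM in litter 53 and 695 and 694 CPM in litter 84 (0.629, adjusted p = 0.0546), and Tubb3, a neuronal tubulin, 604 and 740 CPM in litter 53 (0.557). Markers of pericytes, fibroblasts and meninges had 9 of 15 (60%) under 0.05, a median of 0.359 and 0 called, with Col3a1, a fibrillar collagen, from 5.55 through 17.9 to 47.7 CPM (0.641, adjusted p = 0.0619). The litter means of 14 of the 15 correlated positively with the first component (median r 0.69). Those of the neuron markers had a median r of -0.86, with 7 of 10 negative and Rbfox3 (0.85), Syt1 (0.73) and Snap25 (0.14) positive. With components 1 and 2 as covariates 2 of 15 (13.3%) and 2 of 10 (20%) members had a p under 0.05, against 7.04% of all genes. The striatal list had 5 of 12 (41.7%) and the red blood cell list 4 of 10 (40%) under 0.05, with medians of 0.337 and 0.296 and 0 called in each. Hba-a2, an alpha globin, ran from 53.1 to 252 CPM and was 162 and 215 CPM in litter 63.

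Oligodendrocyte precursors had 1 called of 10, Olig1, a lineage factor (0.602, edgeR adjusted p = 0.0246). It had 49.6 and 52.7 CPM in litter 88 and 87.9 and 107 CPM in litter 61. The other members ran from 0.547 (Lhfpl3) to -0.0445 (Pdgfra). Litter means of Olig1 fell with the first component (r = -0.86). With components 1 and 2 as covariates it did not pass (edgeR adjusted p = 0.141). Astrocyte, microglia and endothelial lists had 0 called and medians of 0.212, 0.199 and 0.258, and Gfap, the astrocyte filament protein, had 0.521. Mitotic cells stood at the other end: 0 of 12 members had a p under 0.05, with a median of -0.0992, and Mki67, a proliferation marker, ran from 16.7 to 27.6 CPM (0.284). Ependymal markers had a median of -0.0736, though Rarres2, a chemokine precursor that overlaps Lrrc61, was called. Neutrophil and lymphocyte markers had 0 members tested.

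**Figure D4:**
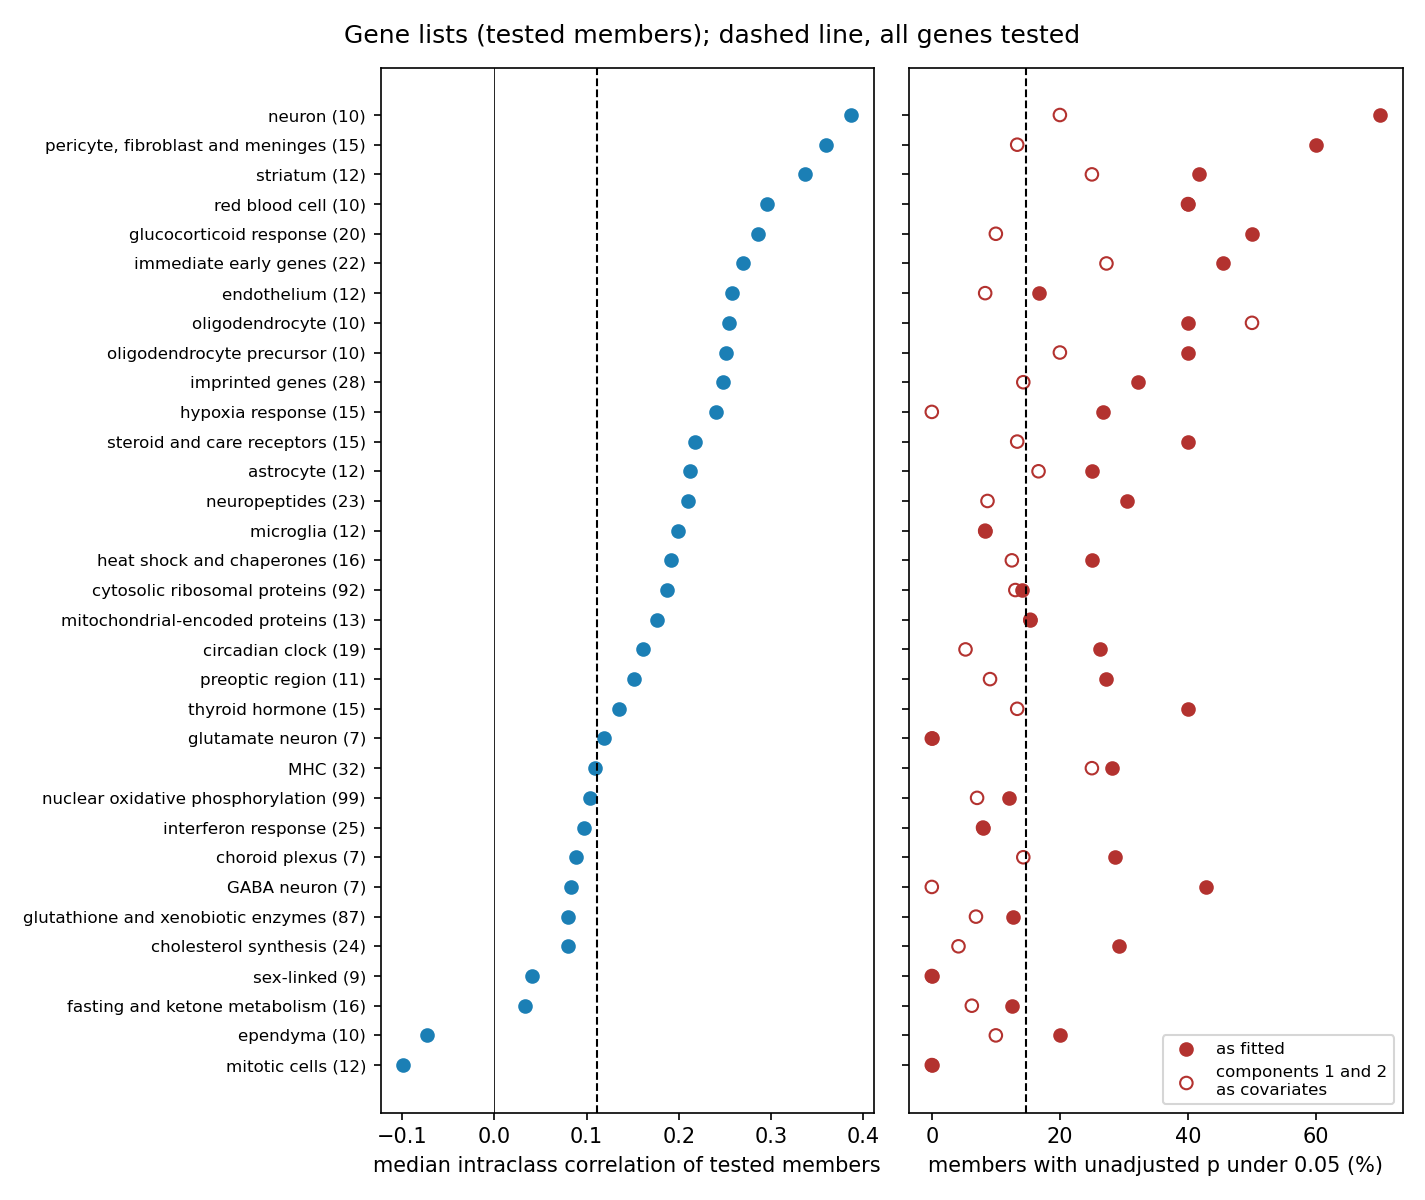
Gene lists with the number of tested members, ordered by the median intraclass correlation of the members (left), and the percentage of members with an unadjusted p under 0.05 in the litter test (right, filled, and open with components 1 and 2 as covariates). Dashed lines give all 18943 genes, and neuron, meningeal and striatal markers, immediate early and glucocorticoid genes lie above them.

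Of the larger families, ribosomal, respiratory and xenobiotic genes lay near the background share of 14.6%. Cytosolic ribosomal proteins had 13 of 92 (14.1%) members under 0.05 and 1 called, Rpl30l1, a ribosomal protein copy; nuclear oxidative phosphorylation genes had 12 of 99 (12.1%) and 1 called, Cox6b2, a cytochrome oxidase subunit. Glutathione and xenobiotic enzymes, which handle bisphenols, had 11 of 87 (12.6%) and 0 called. Interferon-response genes had 2 of 25 (8%), with Mx2 the 1 called. Genes of the major histocompatibility complex had 9 of 32 (28.1%) and 0 called, and 8 of 32 with components 1 and 2 as covariates, when RT1-CE4 and RT1-CE5 passed. RT1-T24-1, a class I gene, ran from 5.14 through 11.5 to 37.1 CPM with 31.4 and 27.97 CPM in litter 63 (0.572). The list of heat shock and chaperone genes had Rbm3, which is induced by cold, as the 1 called of 16. Sex-linked genes had 0 of 9 under 0.05. The lists held 901 genes of the data, not all of them tested, and 0.776% of all 18943 tested genes were called. In all, 8 distinct list members were called: Nr4a1, Olig1, Rbm3, Mx2, Rpl30l1, Cox6b2, Rarres2 and Ttr. Apart from Rbm3 each missed the threshold with 1 litter left out, as Olig1 did without litter 61 (edgeR adjusted p = 0.0951), Mx2 and Cox6b2 without litter 53 (0.0869 and 0.1775), Rpl30l1 and Rarres2 without litter 88 (0.114 and 0.102) and Ttr without litter 84 (0.128).

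Hormone and neuropeptide genes had 0 called. Of 15 receptors and enzymes of steroid and care signalling 6 (40%) had a p under 0.05, against 14.6% of all genes. Among them were Pgr, the progesterone receptor (6.02 through 10.9 to 15.7 CPM, 0.570, edgeR adjusted p = 0.0909), Esrrb, an estrogen-related receptor (0.475, 0.0667), Prlr, the prolactin receptor (0.430), Oxtr, the oxytocin receptor (0.394), and Nr3c2. Litter means of Pgr, Prlr and Esrrb followed the first component (r = -0.83, -0.84 and 0.72). With components 1 and 2 as covariates their unadjusted edgeR p-values were 0.145, 0.53 and 0.0184. Esr1, the estrogen receptor that marks preoptic neurons, had -0.0906. Esrrg, the estrogen-related receptor named in the title of the series, ran from 88.3 through 128 to 181 CPM. It was 109 and 98.8 CPM in litter 53 and 165 and 175 CPM in litter 88, with 11 of 21 pairs on the same side of the group means (intraclass correlation 0.263, p = 0.0845, adjusted p = 0.418 in edgeR, permutation p = 0.341). Littermates differed in Esrrg by a median factor of 1.14 and pups of different litters by 1.16. The genes of assigned symbol most like Esrrg over the 42 libraries were Adamtsl1, Htr4 and Sgcz (r = 0.92, 0.91 and 0.91).

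Each exposure had littermates more alike than other pups on average. Mean r was 0.145 after oil, 0.0867 after BPA, 0.0992 after the mixture at 50 µg/kg and 0.15 after the mixture at 150 µg/kg. Tests of the litters of 1 exposure called 5 genes after oil (0.0264%), 7 after BPA (0.037%), 11 after the lower mixture dose (0.0581%) and 40 after the higher (0.211%). These counts rest on 5 or 6 litters and on single ones among them: the 40 fell to 2 without litter 63 and to 3 without litter 61 and were 81 without litter 46, the 11 fell to 2 without litter 53 and were 35 without litter 100, the 7 fell to 0 without litter 68, and the 5 fell to 0 without litter 49. Whether exposures differ in littermate agreement was not tested. Without the higher mixture dose the test over the other exposures called 33 genes, 25 of them among the 147, without oil 40, and without the lower mixture dose 474.

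The labels give 1 value of the dam's care per litter, so care and the other differences between litters were tested together. Licking/grooming ran from 91.9 (litter 63) to 547 (litter 50) over the 21 litters, in units the labels do not give. With it and nest attendance as covariates, so that litter was tested on what they leave, 182 genes passed, 134 of them among the 147. Library measures were not clearly shared: the intraclass correlation was -0.0856 for log10 total count, -0.167 for genes detected, 0.164 for the share of mitochondrial-encoded counts and 0.50 for the share of the 10 highest genes (permutation p = 0.0375, adjusted p = 0.15 over 4).

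Brother and sister also allow sex to be compared within a litter. With the litter in the model, 17 genes (0.0897%) differed between female and male littermates, 9 higher and 8 lower in females, and without it 18, of which 17 were the same. An unadjusted p under 0.05 was reached by 1007 genes with the litter and by 834 without. Beside Xist (log2 difference 5.37, edgeR adjusted p = 4.17e-16) and the Y-linked Uty (-3.90), Eif2s3y (-6.84) and Kdm5d (-4.12), the X-linked Kdm6a (0.41), Kdm5c (0.25) and Ddx3x (0.19), which escape X inactivation in mouse or human, were higher in females. Jpx, an activator of Xist in mouse, was higher by 0.19 (adjusted p = 0.00548), and Dkc1, the pseudouridine synthase of telomerase RNA, lower (-0.37, adjusted p = 0.00487). Hydin, a protein of motile cilia, was higher by 0.58 (adjusted p = 0.0343).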

How the data were processed

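Counts were deposited by the authors as raw whole-number counts per gene (1 table for females, 1 for males, from which outliers had been taken out, per the file names). The submitters' processing notes name the build mRatBN7.2 and the tools STAR 2.7.3a, Cutadapt 1.18, bedtools 2.27.1 and SAMtools 1.10, while strand and duplicate handling are not stated there. Each litter was read from the library names and is the source of the pairing: the licking/grooming and nest attendance values of the labels were identical in both pups of all 21 litters. Female libraries held 4397460 to 7223180 counts and male libraries 4747461 to 6740045. All 45 columns matched a library, and 0 were unused.

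Both tables were joined, and genes kept by filterByExpr (minimum count 10, minimum total 15) were scaled by TMM in edgeR 4.0.16 (R 4.3.3). In a model of 8 group means and 17 litter coefficients, with 17 residual degrees of freedom, the litter coefficients were tested jointly by robust quasi-likelihood F-tests, with Benjamini-Hochberg adjustment at 0.05. Similarity used log2 CPM (prior count 2) minus the mean of each exposure and sex. Pairings were permuted within exposure, two-sided, with 100000 resamples. Alternatives were DESeq2 1.42.0, limma 3.58.1 (voom), other scaling and filters, covariates and left-out litters or exposures. Genes were named by rule: the 25 with an assigned symbol and the lowest p, up to 4 members past the threshold of each of 34 lists, the 3 members of highest intraclass correlation where none passed, neighbouring called genes, Esrrg, and up to 10 per direction for sex. The litters, lists and rule were chosen with earlier results of these data known. Of 911 list genes, 901 were in the tables. Of 40643 identifiers, 35203 matched a symbol of the RefSeq table of GRCr8. Mitochondrial-encoded genes were matched by the names the tables use. The steps were tested on simulated data. Figures were drawn with matplotlib 3.10.9 in Python 3.11.15.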

Additional observations from a re-analysis of the deposited data

Results flagged for a closer look

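Of 124 groups of 4 to 10 libraries or litters examined for a value far from the rest, 14 were marked, and chance marks about 1 in 20. In litter 53 the correlation between littermates was 0.383, next to 0.117 in the next litter of the 50 µg/kg mixture. Ttr accounted for 4 of the marks: 180.2 CPM in the oil female of litter 84 (next 0.707), 183 CPM in the BPA female of litter 73 (next 3.02), 1.70 CPM in the female of litter 63 and 2.19 CPM in the male of litter 100. Alkbh5 was 8.45 CPM and Rbm3 58.0 CPM in the oil female of litter 9, whose brother was low in both genes as well. Nr4a1 was 11.3 CPM in the oil male of litter 84 and 18.7 CPM in the male of litter 63, whose sister was the highest female of that exposure. Trim67 was 74.8 CPM in the oil female of litter 49, with a brother at 72.1 CPM, and 39.8 CPM in the BPA male of litter 68. Slc22a25 was 17.6 CPM in the female of litter 53 and 48.0 CPM in the oil male of litter 50. Ube2s-ps3 was 25.8 CPM in the BPA male of litter 73. The causes were not tested.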

How the results depend on the processing

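The difference in whole-profile similarity kept its direction and a permutation p under 0.05 with prior counts of 0.5 and 5, Spearman correlation, genes scaled to unit SD (0.127), genes of at least 10 CPM (0.240), RLE scaling, the replicate block (0.153), and each litter or exposure left out. The count of 147 genes of the litter test did not hold: it was 741 with DESeq2 (141 of the 147 among them), 3396 without the filter on low counts (3354 of them genes of the main test), 77 with all 45 libraries, 62 with 2 components and 35 with 1 component as covariates, 38 without litters 73 and 84, 40 without oil, 474 without the lower and 33 without the higher mixture dose. It ran from 42 to 475 with a litter left out. With the replicate block it was 184, 83 of them shared. By the library names, the replicate numbers of the titles joined littermates in 2 of 18 female-male pairs. The mean r of these 18 pairs was -0.00723. List members past the threshold were 8, 68 with DESeq2, 17 with voom and 240 without the filter. Within exposures DESeq2 called 34 genes for oil, 23 for BPA, 113 and 219 for the lower and higher mixture dose, and the test without the filter 1313, 679, 1880 and 1802. With a litter left out these counts ran from 0 to 9, 0 to 8, 2 to 35 and 2 to 81. Component values ran from -0.526 to 0.623 with a litter left out, components 2 and 3 changing sign. The intraclass correlation of Ttr was -0.0695 without litter 84, and Esrrg passed only without the filter. Sex calls ran from 16 to 22. The causes were not tested. Of the 36 named called genes 36 passed with DESeq2, 32 with voom and 13 with 2 components as covariates. Low-count genes are limited by 4397460 to 7223180 counts per library.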
